A study of Mus musculus with 6 samples.

Results

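The 8 genes described here are the Indian hedgehog and *Nr2f2* axis of the uterus: the ligand gene *Ihh*, the receptor gene *Ptch1*, the signal transducer gene *Smo*, the transcription factor genes *Gli1*, *Gli2* and *Gli3*, the decoy receptor gene *Hhip*, and *Nr2f2*, which encodes the orphan nuclear receptor COUP-TFII. They were taken by symbol from 56748 genes per uterus, and all 8 were among the 16605 genes that passed edgeR's filter on low counts. Uteri of 3 control and 3 *Gp130* ecKO females were collected at 1600 h on day 4 of pregnancy, just before the embryo attaches, on a background labelled C57BL/6 and given as C57BL/6J in the study's methods. The labels name the tissue as uterus and the design text as endometrium. The deleted females had 1 *Ltf*-iCre allele and both copies of *Gp130* (*Il6st*) floxed, so that recombination follows the *Ltf* promoter, which is active in the adult uterine epithelium and also in some neutrophils and macrophages. Values of 3 uteri are given in the order of replicates 1, 2 and 3, and *Gp130* ecKO uteri are also called ecKO uteri. The labels give the control females as wildtype, while the study's methods also allow floxed females without iCre, and females of both groups were over 8 weeks old and had been mated with wildtype males. Poly(A) RNA was read as single reads of 75 bp, and the expected counts of a uterus summed to between 13960748 (control 3) and 25906443.

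In the hedgehog pathway, PTCH1 holds SMO inactive until a ligand binds, and active SMO then turns the GLI proteins towards activation of their targets. *Gli1*, *Ptch1* and *Hhip* are themselves targets, so their transcripts are widely read as a measure of pathway activity, and PTCH1 and HHIP restrain the signal that induces them. In the pre-implantation uterus, progesterone acting through its receptor induces *Ihh* in the epithelium, the ligand is received by PTCH1 in the stroma, and stromal COUP-TFII lies downstream and is linked to *Bmp2*, *Wnt4* and *Hand2*.

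The targeted gene had less RNA in every library of the deleted group, without passing the thresholds below: *Il6st* had 631, 678 and 452 CPM across the controls versus 388, 349.8 and 362 CPM across the ecKO uteri. CPM, the usual unit of library-scaled counts, was computed with TMM-scaled library sizes. Markers of epithelium, stroma, smooth muscle and endothelium were present in all 6 libraries, and their amounts differed. The summed CPM of 12 epithelial markers was 2824 to 4957 in the control and 6863 to 8876 in *Gp130* ecKO, that of 12 stromal markers was 4829 to 6193 and 2613 to 3916, and that of 8 smooth muscle markers ran from 493 in *Gp130* ecKO 1 and 586 in control 3 to 2842 in control 1 and 3049 in *Gp130* ecKO 3. The sum of 8 endothelial markers was 507 to 1206 in the control and 265 to 421 in *Gp130* ecKO, that of 4 pericyte markers 216 to 447 and 102 to 192, and that of 4 mesothelial markers 167 to 250.2 and 67.1 to 117. The sum of 6 gland markers was 1103, 236 and 116.5 CPM across the controls versus 8719, 161 and 221 CPM across the ecKO uteri. Of these, *Prss29* alone had 6546 CPM in *Gp130* ecKO 1, and the part of glands was not tested. The smooth muscle markers bear on which tissue was taken, and the part of muscle in the spread between libraries was not tested. In RNA of mixed cells, fewer cells of a type and less RNA per cell cannot be told apart. Control 2 stood apart from the other controls in a multidimensional scaling of the libraries, at 0.03 on the first dimension. Controls 1 and 3 were at 2.09 and 2.08, and the ecKO uteri between −1.47 and −1.32.

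No gene of the axis passed the thresholds of FDR below 0.05 and more than 2-fold change in edgeR's quasi-likelihood test, which 0.157% of the 16605 tested genes did (0.126% higher and 0.0301% lower in *Gp130* ecKO). At an unadjusted p below 0.05 there was 1 of the 8, *Gli1*, against 25.0% of all tested genes, and DESeq2 called that gene and no other of the 8, where it called 9.31% of all tested genes. All 8 log2 fold changes were below 0, with a median log2 fold change of −0.88, where 52.9% of the tested genes were below 0 and their median was −0.05. The CPM of the groups overlapped for every member, whereas 31.3% of tested genes did not overlap (15.7% higher and 15.6% lower in *Gp130* ecKO). With 1 uterus left out, an alternative added after the data were seen, *Gli1*, *Gli2*, *Gli3* and *Hhip* did not overlap without control 1 (38.9% of tested genes), *Ihh* and *Smo* without control 2 (45.5%), and *Smo*, the 3 GLI genes and *Nr2f2* without *Gp130* ecKO 2 (42.1%). No member was without overlap when control 3 (39.9%), *Gp130* ecKO 1 (36.2%) or *Gp130* ecKO 3 (45.3%) was left out. At an unadjusted p below 0.05 in edgeR, there were 4 members without control 1 (19.2% of tested genes) and 3 without *Gp130* ecKO 2 (20.4%). There were 2 without control 2 (27.3%), and 0 without control 3 (19.1%), *Gp130* ecKO 1 (15.4%) or *Gp130* ecKO 3 (22.2%).

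**Figure D1:**
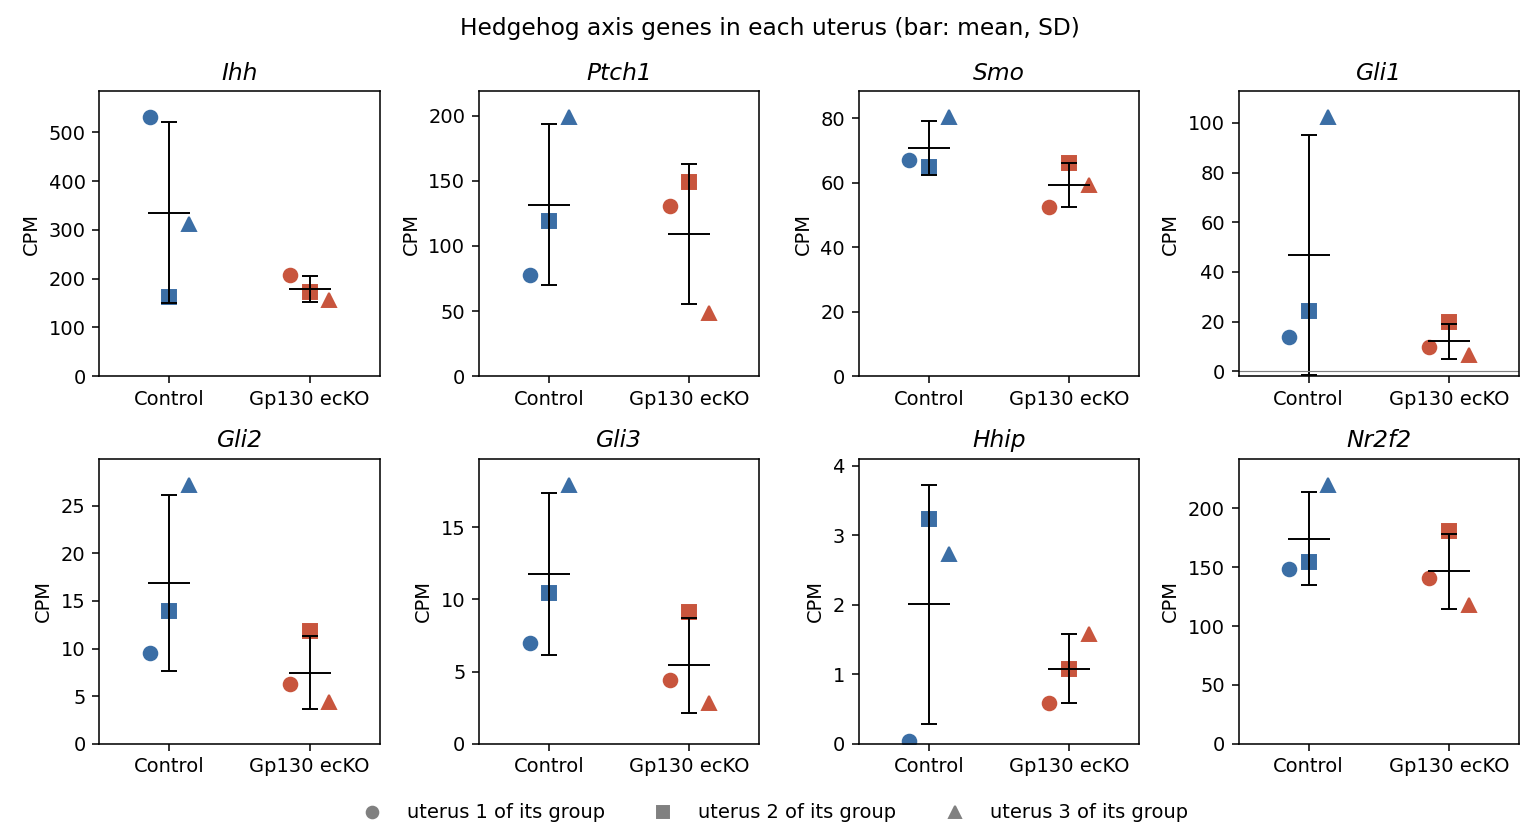
CPM of the 8 genes in each uterus, with controls in blue and *Gp130* ecKO in red; symbols give the uterus number within its group, and bars the mean and SD of 3 uteri. Control 3 is highest for 6 of the genes, control 1 is highest for *Ihh*, and the groups overlap in every panel.

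*Ihh* (ENSMUSG00000006538, chromosome 1, 74984474 to 74990837, minus strand), the ligand, had 531, 163 and 312 CPM across the controls versus 207, 173 and 156 CPM across the ecKO uteri. The control uteri were spread over 3.26-fold and the *Gp130* ecKO uteri over 1.32-fold. Control 2 lay among the *Gp130* ecKO uteri, and controls 1 and 3 lay above all of them. The mean was 335 ± 185 CPM for the 3 controls (SD, n = 3) and 179 ± 26 CPM for the 3 ecKO uteri (SD, n = 3), which corresponds to −0.91 on the log2 scale (SE 0.39, unadjusted p = 0.0522, quasi-likelihood FDR 0.204 in edgeR). Without control 2 the log2 fold change was −1.21 (edgeR FDR 0.0551), and without control 1 it was −0.38 (edgeR FDR 0.511). On log2(CPM + 0.5), a two-sided exact permutation test gave p = 0.3, where 3 uteri against 3 cannot give less than 0.1.

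*Ihh* is made in the epithelium, and the epithelial markers were not even between the groups. Of the 12 epithelial markers, 11 had a log2 fold change above 0 and 7 were higher in every *Gp130* ecKO uterus, against 15.7% of all tested genes, although 0 passed the thresholds in edgeR, and none was at 0 in any library. Per 1000 CPM of these markers, *Ihh* had 124, 32.9 and 111 CPM across controls 1, 2 and 3 versus 23.4, 25.3 and 22.7 CPM across ecKO uteri 1, 2 and 3. On this denominator the ecKO uteri lay below all 3 controls, by 1.69 on the log2 scale (exact permutation test, p = 0.1, the smallest possible). The list includes keratins such as *Krt8*, with 435, 649 and 347 CPM across the controls versus 1447, 1016 and 1101 CPM across the ecKO uteri, so the denominator itself differed between the groups. By staining, the study reported more KRT8 and CDH1 protein in the *Gp130* ecKO epithelium, and *Krt8* and *Cdh1* are both in the list. With *Epcam* alone as the denominator, a marker chosen after the values were seen, *Ihh* had 818, 431 and 898 CPM per 1000 across the controls versus 484, 479 and 379 CPM across the ecKO uteri, and the groups overlapped at control 2. *Epcam* was the 1 marker of the 12 with a log2 fold change below 0, at −0.19. The part of epithelial content in the *Ihh* values was not tested beyond these ratios.

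**Figure D2:**
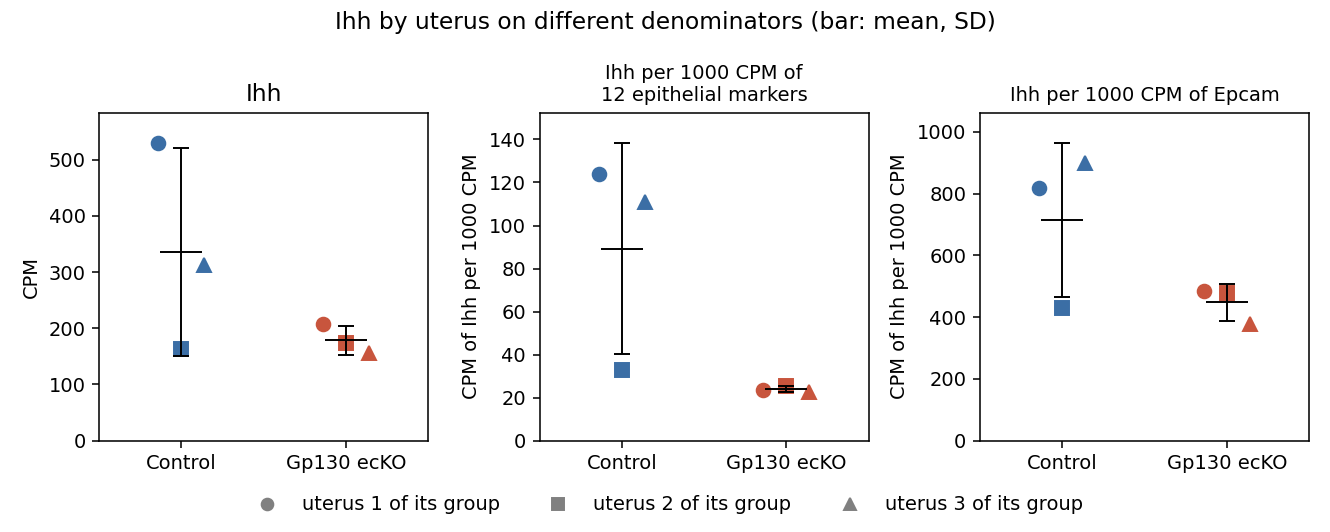
*Ihh* in each uterus as CPM, per 1000 CPM of 12 summed epithelial markers and per 1000 CPM of *Epcam*, with bars for the mean and SD of 3 uteri. The groups separate only on the summed markers, where controls sit at 32.9 to 124 and *Gp130* ecKO uteri at 22.7 to 25.3, and control 2 is next to the *Gp130* ecKO uteri in all panels.

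The other ligand genes gave little RNA. *Shh* had 0 counts in all 6 uteri, where 3 counts correspond to between 0.115 and 0.2 CPM. *Dhh* had 6.03, 5.32 and 1.93 CPM across the controls versus 0.678, 1.69 and 3.44 CPM across the ecKO uteri, and the groups overlapped. Together with acylation, release and carrier genes such as *Hhat*, *Disp1* and the *Scube* genes, 7 of 8 ligand and release genes were tested, 0 passed the thresholds in either direction, and their median log2 fold change was −1.02.

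*Ptch1* (ENSMUSG00000021466, chromosome 13, 63656142 to 63721412, minus strand), the receptor and a target of the pathway, had 77.6, 119 and 199 CPM across the controls versus 131, 149 and 48.4 CPM across the ecKO uteri. The lowest and the highest values lay in different groups, with 4 uteri of both groups between them. Its log2 fold change was −0.27 (SE 0.47, quasi-likelihood FDR 0.743 in edgeR), and the sign changed to 0.155 without control 3 and to 0.121 without *Gp130* ecKO 3. *Smo* (ENSMUSG00000001761, chromosome 6, 29735407 to 29762532, plus strand) was the steadiest of the 8, with 66.99, 64.8 and 80.3 CPM across the controls versus 52.5, 66.3 and 59.4 CPM across the ecKO uteri. Its highest and lowest uteri differed 1.53-fold, and its log2 fold change was −0.25 (SE 0.17, edgeR FDR 0.381). With a uterus left out, that fold change lay between −0.332 without *Gp130* ecKO 2 and −0.151 without control 3.

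The promoters of the ligand gene, of the receptor gene and of *Gli1* are shown because the latter 2 genes report GLI activity while the first carries the signal. Each line gives 300 bases of GRCm39, from 250 before to 50 after the start of the canonical transcript in GENCODE M39, 5′ to 3′ on the strand of the gene, and capitals mark a match to the GLI consensus GACCACCCA.
Ihh, chr1:74990788-74991087, minus strand: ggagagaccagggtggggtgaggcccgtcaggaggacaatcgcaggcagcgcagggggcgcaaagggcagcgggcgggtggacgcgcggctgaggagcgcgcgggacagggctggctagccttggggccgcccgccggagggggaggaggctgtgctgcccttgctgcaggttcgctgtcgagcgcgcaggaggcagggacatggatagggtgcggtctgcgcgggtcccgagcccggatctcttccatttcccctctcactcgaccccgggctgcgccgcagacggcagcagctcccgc
Ptch1, chr13:63714043-63714342, minus strand: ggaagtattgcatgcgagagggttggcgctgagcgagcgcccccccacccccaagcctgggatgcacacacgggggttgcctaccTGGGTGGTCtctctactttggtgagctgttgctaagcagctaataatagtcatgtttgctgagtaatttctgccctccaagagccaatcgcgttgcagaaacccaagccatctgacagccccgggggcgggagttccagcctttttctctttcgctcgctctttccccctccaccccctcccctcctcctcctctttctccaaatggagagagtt
Gli1, chr10:127177816-127178115, minus strand: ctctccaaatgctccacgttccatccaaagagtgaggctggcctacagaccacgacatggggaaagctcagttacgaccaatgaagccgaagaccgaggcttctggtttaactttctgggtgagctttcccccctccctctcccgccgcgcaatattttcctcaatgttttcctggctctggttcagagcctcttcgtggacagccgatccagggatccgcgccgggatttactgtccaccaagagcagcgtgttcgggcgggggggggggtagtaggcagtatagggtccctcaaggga
Of the 8 members, *Ptch1* alone held GACCACCCA in this window on either strand, starting 165 bases before the transcript start and reading TGGGTGGTC on the strand of the gene. These letters occurred in 0.202% of 21757 protein-coding promoters of the same length. With the middle base left free (GACCNCCCA, which includes the consensus), *Ptch1* had a second match 521 bases before its start, within 1000 bases upstream, and 2.79% of promoters had such a match there. The STAT motif TTCCNGGAA, searched because Gp130 signals through STAT3, was found in none of the 8 windows and in 1.15% of all promoters. A match describes these letters in this window and is not evidence of binding.

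*Gli1* (ENSMUSG00000025407, chromosome 10, 127165751 to 127177865, minus strand), the transcriptional activator and target, had 13.96, 24.1 and 102 CPM across the controls versus 9.68, 20 and 6.34 CPM across the ecKO uteri. Control 3 stood far above every other uterus, and the other 5 lay between 6.34 and 24.1 CPM. The control mean was 46.8 ± 48.4 CPM (SD, n = 3) and the *Gp130* ecKO mean 12 ± 7.1 CPM (SD, n = 3), which corresponds to −1.96 on the log2 scale (SE 0.77, unadjusted p = 0.0371, quasi-likelihood FDR 0.176 in edgeR). It was −0.67 without control 3 (edgeR FDR 0.504), so 1 uterus set much of its size. *Gli1* overlaps *Arhgap9*, on the opposite strand, at its end, and *Arhgap9* had 36 to 130 expected counts. The library kit kept strand, but the counting setting is not given in the sources used here.

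*Gli2* (ENSMUSG00000048402, chromosome 1, 118761858 to 118982598, minus strand), the main activator of the pathway, had 9.51, 13.9 and 27.2 CPM across the controls versus 6.24, 11.8 and 4.39 CPM across the ecKO uteri. *Gli3* (ENSMUSG00000021318, chromosome 13, 15637809 to 15904611, plus strand), known mostly as a repressor when no ligand is present, had 6.96, 10.4 and 17.9 CPM across the controls versus 4.38, 9.11 and 2.82 CPM across the ecKO uteri. In the quasi-likelihood test of edgeR the log2 fold change of *Gli2* was −1.165 with SE 0.50 and FDR 0.2002, and that of *Gli3* was −1.10 with SE 0.52 and FDR 0.233. Both were near −0.65 without control 3, at −0.65 and −0.68. Without *Gp130* ecKO 2 they were −1.65 and −1.7.

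The 3 GLI genes put the uteri in the same order, from control 3 through control 2, *Gp130* ecKO 2, control 1 and *Gp130* ecKO 1 to *Gp130* ecKO 3. *Pdgfra*, a marker of stromal fibroblasts picked after its values were seen, had 169, 160 and 113 CPM in the first 3 of these uteri, and 72.7, 74.3 and 42.3 CPM in control 1, *Gp130* ecKO 1 and *Gp130* ecKO 3. The smooth muscle sum, in the order of the GLI genes from high to low, was 586, 2136, 923, 2842, 493 and 3049 CPM, and it did not follow that order. Nor did the sum of the 12 stromal markers, at 4829, 6193, 3361, 5096, 2613 and 3916 CPM. With *Pdgfra* as the denominator, chosen after the values were seen, *Gli2* had 138, 90.1 and 164 CPM per 1000 across the controls versus 90.7, 109 and 116 CPM across the ecKO uteri, so the overlap of the groups remained and the difference shrank to −0.28 on the log2 scale (exact permutation test, p = 0.5). With *Pdgfra*, *Gli1* and *Gli3* differed by −0.74 and −0.27 on the log2 scale (exact permutation test, p = 0.3 each). With the 12 summed stromal markers as the denominator, the difference was −0.84 for *Gli1*, −0.38 for *Gli2* and −0.37 for *Gli3* (exact permutation test, p = 0.5, 0.7 and 0.6), and the groups overlapped for all 3. *Pdgfra* itself had a log2 fold change of −0.81 (edgeR FDR 0.273), so division by it raises every difference by construction. The part of stromal content in the GLI values was not tested beyond these ratios, and that of muscle content was not tested.

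**Figure D3:**
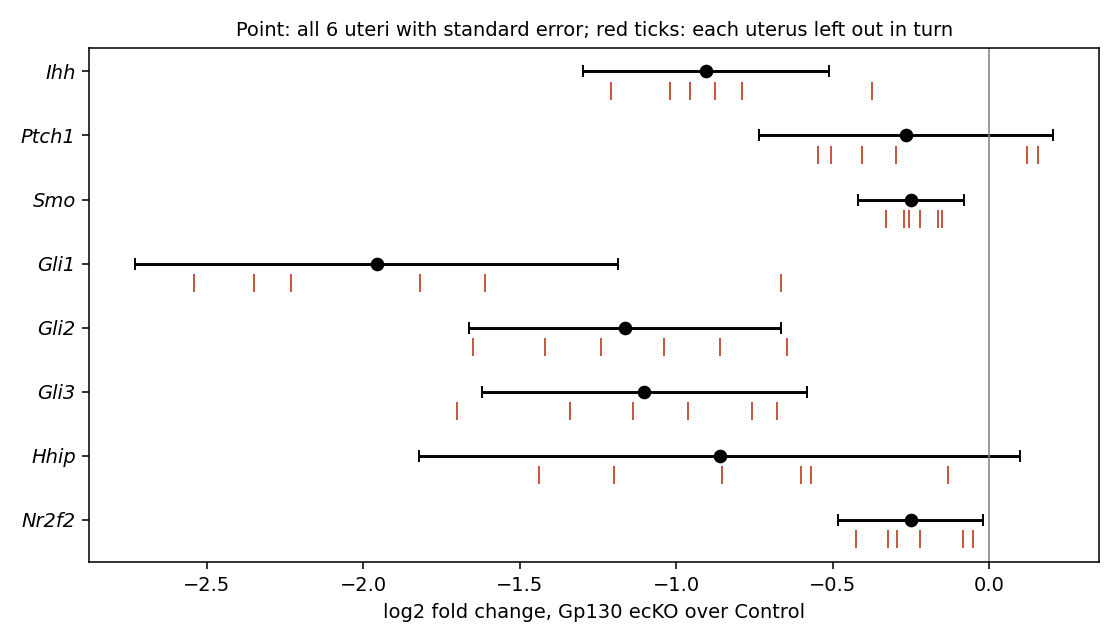
Log2 fold change of each gene in *Gp130* ecKO over control with its standard error (black), and the same value with each uterus left out in turn (red ticks). *Gli1* runs from −2.54 to −0.67 when a uterus is left out, and *Ptch1* crosses 0.

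Ratios of 2 genes within a uterus do not depend on how libraries are scaled. All 28 pairs of the 8 genes were compared after the values had been seen, and in 3 of them the groups did not overlap. These were *Ptch1* to each of the GLI genes. Of single tested genes, 31.3% did not overlap in CPM, and no share over pairs of other genes is given here. *Ptch1* to *Gli3*, as a ratio of the deposited TPM, was 12.7, 12.7 and 12.8 across controls 1, 2 and 3 versus 31.8, 18.8 and 19.4 across ecKO uteri 1, 2 and 3. The ratio was nearly constant over the control uteri although the CPM of *Gli3* itself differed 2.58-fold among them. *Ptch1* to *Gli2* was 7.37, 7.93 and 6.86 across the controls versus 19.4, 11.8 and 10.2 across the ecKO uteri. *Ptch1* to *Gli1* was 3.08, 2.67 and 0.994 across the controls versus 7.41, 4.04 and 4.14 across the ecKO uteri. The differences were 0.83, 0.85 and 1.31 on the log2 scale for *Gli3*, *Gli2* and *Gli1*. Each had p = 0.1 in an exact permutation test, the smallest that 3 against 3 allow, and 0.622 after adjustment over the 28 pairs. The 3 ratios share *Ptch1*, and the GLI genes put the uteri in 1 order, so they are not separate results.

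**Figure D4:**
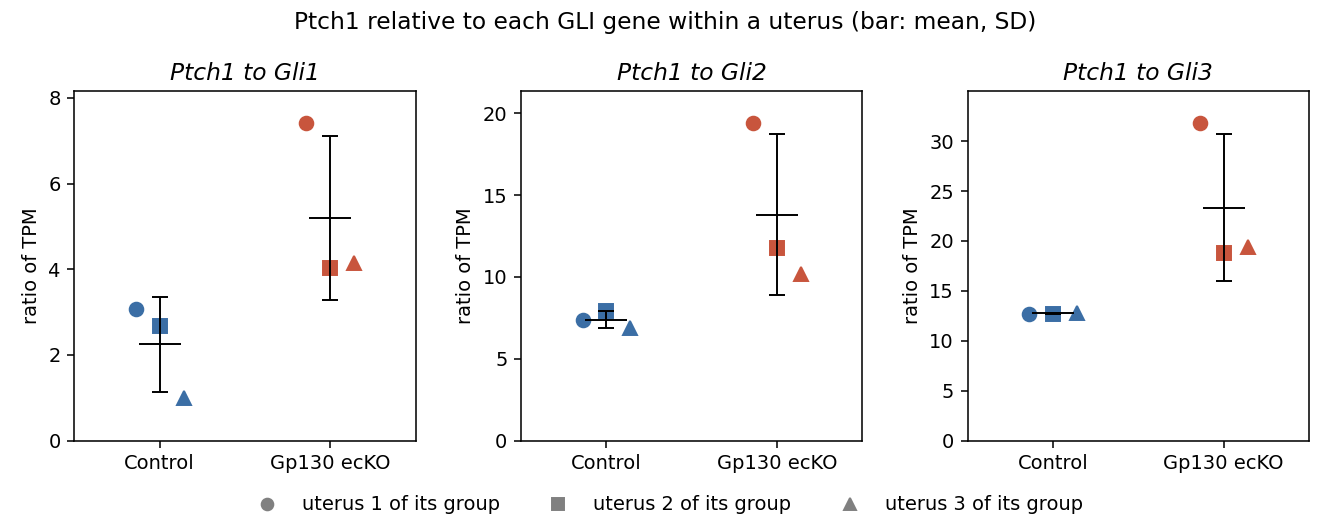
Ratio of *Ptch1* to *Gli1*, *Gli2* and *Gli3* in deposited TPM within each uterus, with bars for the mean and SD of 3 uteri. In each panel the 3 *Gp130* ecKO uteri lie above the 3 controls, and the controls for *Gli3* sit at 12.7 to 12.8.

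*Hhip* (ENSMUSG00000064325, chromosome 8, 80692480 to 80784658, minus strand), which binds hedgehog ligands at the cell surface and is a target of the pathway, had few counts. It had 1, 84 and 41 counts in controls 1, 2 and 3, and 13, 28 and 38 counts in *Gp130* ecKO 1, 2 and 3. The single count of control 1 stands in the uterus with the most *Ihh* RNA. In CPM the values were 0.0405, 3.24 and 2.73 across the controls versus 0.588, 1.08 and 1.58 across the ecKO uteri, so control 1 was below and controls 2 and 3 above the *Gp130* ecKO uteri. The log2 fold change was −0.86 (SE 0.96, quasi-likelihood FDR 0.596 in edgeR), between −1.44 without control 1 and −0.13 without control 2.

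*Nr2f2* (ENSMUSG00000030551, chromosome 7, 70001692 to 70016519, minus strand) had 149, 154 and 220.0 CPM across the controls versus 141, 180.4 and 118 CPM across the ecKO uteri. *Gp130* ecKO 2 was above controls 1 and 2. The mean was 174 ± 40 CPM for the 3 controls (SD, n = 3) and 146 ± 32 CPM for the 3 ecKO uteri (SD, n = 3), which corresponds to −0.25 on the log2 scale (SE 0.23, quasi-likelihood FDR 0.514 in edgeR). It was −0.05 without control 3 and −0.425 without *Gp130* ecKO 2. Relative to the 12 summed stromal markers, which were lower in *Gp130* ecKO, the sign turned and the difference was 0.47 (exact permutation test, p = 0.2). The long noncoding RNA *B130024G19Rik* overlaps *Nr2f2* on the opposite strand and had 13.2 to 173 expected counts, against 2837 to 4690 for *Nr2f2*. Of the related receptor genes, *Nr2f6* had 106, 125 and 91.5 CPM across the controls versus 129, 104 and 122 CPM across the ecKO uteri. *Nr2f1* was weakly expressed, with 1.90, 1.04 and 4.73 CPM across the controls versus 0.452, 0.577 and 0.166 CPM across the ecKO uteri, and its groups did not overlap (log2 fold change −2.61, edgeR FDR 0.104). The other 2 tested genes of the list of 5 related receptors, named after their values were seen, had more RNA in every ecKO uterus, as did 15.7% of all tested genes. *Nr2c1* had 27.9, 32.4 and 19.5 CPM across the controls versus 48.8, 47.7 and 39.1 CPM across the ecKO uteri (log2 fold change 0.76, edgeR FDR 0.115). *Nr2c2* had 14.1, 23.5 and 24.7 CPM across the controls versus 48.01, 55.03 and 31.1 CPM across the ecKO uteri (log2 fold change 1.11, edgeR FDR 0.102).

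Per length, in deposited TPM, *Ihh* was the most abundant of the 8 in 5 uteri, with means of 191 ± 99 TPM (SD, n = 3) in the control and 108 ± 22 TPM (SD, n = 3) in *Gp130* ecKO. *Nr2f2* followed, with 107 ± 33 and 92.2 ± 29.2 TPM, and was above *Ihh* in *Gp130* ecKO 2. These 2 genes overlapped within their spread in both groups. *Smo* and *Ptch1* were level with each other, at means of 25.03 and 24.98 TPM in the control and 22.18 and 22.16 TPM in *Gp130* ecKO, and their order differed between uteri. *Gli1* came next at 17.4 ± 19.4 TPM in the control and 4.50 ± 3.09 TPM in *Gp130* ecKO, then *Gli2* at 3.44 and 1.62 TPM, and *Gli3* at 1.95 and 0.977 TPM. *Hhip* was lowest in 5 uteri, at means of 0.72 and 0.417 TPM.

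The uterus with the most *Ihh* did not have the most of any other member. This did not hold for all genes of the target list, since *Foxf1* and *Ccnd1*, given below, were highest in control 1. Control 1 had the highest *Ihh* and the lowest *Ptch1*, *Gli1*, *Gli2*, *Gli3*, *Hhip* and *Nr2f2* of the 3 controls, and control 3 the highest *Ptch1*, *Gli1* and *Nr2f2* of all uteri. In TPM, *Ihh* to *Gli1* was 65.3, 11.2 and 4.83 across controls 1, 2 and 3 versus 36.7, 14.2 and 40.7 across ecKO uteri 1, 2 and 3, and the groups overlapped. Among 14788 other genes with a mean of at least 1 CPM, those nearest to *Ihh* in centred log2 CPM over the 6 uteri were *Slc45a4*, *Ppp1r15a* and *Itprip*, with root mean square differences of 0.103, 0.11 and 0.146. Nearest to *Gli1* were *Dlg2* (0.157), *Galnt6* (0.25) and *Hoxa9* (0.266), and nearest to *Nr2f2* were *Atxn2l* (0.0633), *Ncoa6* (0.0692) and *Itsn2* (0.0716).

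The receptor side of the pathway held 7 further co-receptor genes, of which 0 passed the thresholds in either direction, with a median log2 fold change of 0.25. The co-receptors *Cdon*, *Boc* and *Gas1* bind the ligand together with PTCH1. *Cdon* had 61.05, 52.4 and 40.7 CPM across the controls versus 72.1, 58.2 and 54.01 CPM across the ecKO uteri. *Boc* stayed between 4.47 and 8.21 CPM in all uteri. *Gas1* had 130.0, 133 and 48.6 CPM across the controls versus 47.8, 56.8 and 77.6 CPM across the ecKO uteri.

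Inside the cell, 21 regulators from the SUFU complex to the kinases that act on GLI proteins were tested and 0 passed the thresholds, with 1 higher and 5 lower at an unadjusted p below 0.05 in edgeR, against 12.1% higher and 12.9% lower over all tested genes. *Sufu*, which restrains GLI proteins, had 27.8, 37.9 and 22.5 CPM across the controls versus 31.01, 35.4 and 24.9 CPM across the ecKO uteri, a log2 fold change of 0.05. *Kif7*, a kinesin of the ciliary tip that acts on GLI proteins, had 3.96, 3.97 and 4.67 CPM across the controls versus 1.27, 2.92 and 1.82 CPM across the ecKO uteri (log2 fold change −1.05, edgeR FDR 0.157). Hedgehog signals pass through the primary cilium, and of 12 ciliary transport genes 0 passed, with 2 higher and 2 lower at an unadjusted p below 0.05, against the same shares. *Kif3a*, a motor of that transport named after its values were seen, had 105, 30.97 and 102 CPM across the controls versus 27.9, 20.6 and 16.9 CPM across the ecKO uteri, with control 2 next to the *Gp130* ecKO uteri as for *Ihh* (edgeR FDR 0.0907).

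The list of genes placed upstream of *Ihh* in the uterus holds the progesterone receptor, its partners, *Esr1*, *Egfr*, *Areg* and *Foxo1*. Most of its transcripts had a log2 fold change above 0. Of 11 genes, 9 had a log2 fold change above 0, with a median log2 fold change of 0.63, and 0 passed the thresholds. At an unadjusted p below 0.05 in edgeR, 2 were higher and 2 lower, against 12.1% and 12.9% of all tested genes. The 12 epithelial markers, 11 of them above 0, had a median log2 fold change of 0.86, and their part in the values of the upstream genes was not tested. *Pgr*, the progesterone receptor, had 57.2, 202 and 128 CPM across the controls versus 172, 203 and 272 CPM across the ecKO uteri. *Gata2*, which acts with it on *Ihh*, had 93.7, 354 and 96.1 CPM across the controls versus 284, 498 and 399 CPM across the ecKO uteri. *Sox17*, a regulator of *Ihh* in the epithelium, had 347, 564 and 307 CPM across the controls versus 640.3, 783 and 679 CPM across the ecKO uteri, without overlap (log2 fold change 0.79, edgeR FDR 0.1401). Control 2, low in *Ihh*, was the highest control for *Pgr*, *Gata2* and *Sox17*. The coregulator gene *Arid1a* had 89.6, 98.3 and 95.01 CPM across the controls versus 124, 125 and 85.5 CPM across the ecKO uteri. *Ncoa2* had 63.9, 77.9 and 81.5 CPM across the controls versus 137, 112 and 64.1 CPM across the ecKO uteri, so the groups overlapped for both. The 2 genes of the list below 0 were named after their values were seen. *Areg*, a ligand of EGFR that progesterone induces, had 34.1, 16.1 and 127 CPM across the controls versus 0.136, 1.73 and 1.04 CPM across the ecKO uteri (edgeR FDR 0.0636). *Foxo1*, which the downstream list also holds, had 201, 98.99 and 149 CPM across the controls versus 77.8, 68.8 and 73.7 CPM across the ecKO uteri (edgeR FDR 0.0928). *Egfr* had 34.8, 64.4 and 114 CPM across the controls versus 118, 146 and 63.9 CPM across the ecKO uteri, and *Esr1*, the estrogen receptor, was higher in every *Gp130* ecKO uterus by 1.42 on the log2 scale (edgeR FDR 0.0548). The study, which used edgeR at the same thresholds, called *Esr1* higher and *Areg* lower in *Gp130* ecKO. Which of edgeR's tests it used is not given in the sources used here.

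Besides the members, 11 genes placed downstream of *Ihh* and *Nr2f2* in the uterus had a median log2 fold change of −1.02, with 9 below 0, and 0 passed the thresholds. At an unadjusted p below 0.05 there were 6 lower and 1 higher, against 12.9% lower and 12.1% higher over all tested genes. *Bmp2*, a ligand of decidualization, had 8.66, 4.74 and 23.5 CPM across the controls versus 2.26, 2.69 and 1.99 CPM across the ecKO uteri, with no overlap (log2 fold change −2.39, SE 0.60, edgeR FDR 0.09225). *Hand2*, the stromal factor that holds back growth factor production, had 89.1, 57.03 and 89.7 CPM across the controls versus 34.5, 52.6 and 23.6 CPM across the ecKO uteri, with no overlap (log2 fold change −1.09, edgeR FDR 0.113). The 4 fibroblast growth factor genes of the list were named after their values were seen and did not share a direction. Their log2 fold changes were 2.37 for *Fgf1*, 1.32 for *Fgf18*, −1.22 for *Fgf2* and −3.03 for *Fgf9*. *Fgf2* and *Fgf9* were among the 6 lower genes. The list thus holds *Hand2* beside growth factor genes of the kind it holds back, and its signs have no common reading. *Fgf9* had 43.97, 2.08 and 12.3 CPM across the controls versus 4.61, 1.04 and 1.575 CPM across the ecKO uteri (SE 1.05, edgeR FDR 0.144). The groups overlapped for *Fgf2*, *Fgf9* and *Fgf18*. *Fgf1*, the 1 downstream gene higher at an unadjusted p below 0.05 in edgeR, had 18.7, 87.8 and 10.1 CPM across the controls versus 174, 330.0 and 100.1 CPM across the ecKO uteri. *Wnt4* had 12.8, 4.20 and 13.5 CPM across the controls versus 13.2, 7.81 and 8.50 CPM across the ecKO uteri, a log2 fold change of −0.04. All 12 stromal markers also had a log2 fold change below 0, with a median of −0.69, *Hoxa10* is in both lists, and the part of stromal content in these values was not tested. The 8 endothelial markers were below 0 as well, with a median of −1.27, as were the 4 pericyte markers (−1.05) and the 4 mesothelial markers (−0.89), and their part was not tested either.

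A list of 14 hedgehog target and feedback genes besides the members had 12 tested genes, 8 of them below 0, where 52.9% of all tested genes were, with a median log2 fold change of −0.45, and 0 passed the thresholds. It holds *Gas1*, *Boc* and *Cdon* again, which hedgehog signaling is known to repress, beside induced targets, so its signs have no common reading. *Foxf1*, a mesenchymal target, had 14.2, 10.03 and 8.73 CPM across the controls versus 2.80, 5.19 and 4.85 CPM across the ecKO uteri, with no overlap (log2 fold change −1.36, edgeR FDR 0.0949). *Foxf2* had at most 2 counts in any uterus. The survival gene *Bcl2* had 16.4, 15.8 and 21.2 CPM across the controls versus 12.4, 13.04 and 8.87 CPM across the ecKO uteri. *Ccnd1*, encoding cyclin D1, had 104, 103 and 97.5 CPM across the controls versus 36.7, 65.03 and 81.7 CPM across the ecKO uteri. Both were lower in every *Gp130* ecKO uterus, without passing the thresholds in edgeR. These 3 tested genes were the 3 of the 12 that did not overlap, and 15.6% of all tested genes were lower without overlap. The genes above 0 were *Cdon* (0.26) and, named after their values were seen, *Mycn* (0.79), *Ccnd2* (0.45) and *Cdk6* (0.04), as log2 fold changes, and their groups overlapped.

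**Figure D5:**
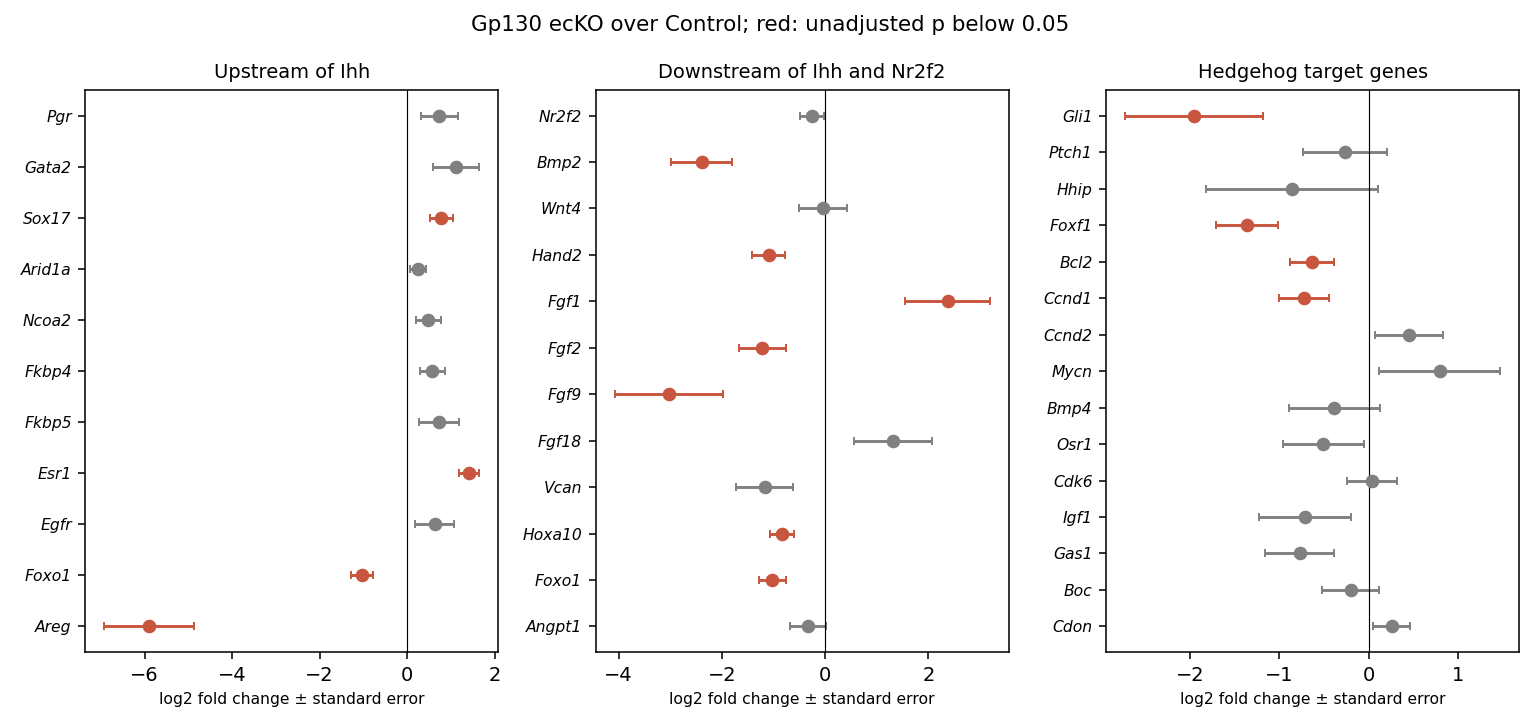
Log2 fold change with standard error of the tested genes upstream of *Ihh*, downstream of *Ihh* and *Nr2f2*, and in the list of hedgehog targets; red marks an unadjusted p below 0.05, and no gene passed the FDR threshold. Most upstream genes lie above 0 and most downstream genes below 0, with medians of 0.63 and −0.93 when *Nr2f2* is counted.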

How the data were processed

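RNA from uteri of 3 control and 3 *Gp130* ecKO females was compared. The authors trimmed reads with fastp 0.23.2, removed ribosomal RNA reads, mapped to GRCm39 with STAR 2.7.10a and counted with RSEM 1.3.3. The annotation release and the counting's strand setting are not given in the sources used here. The deposited tables hold RSEM expected counts per gene, which are not normalized. The deposited TPM, which the authors' RSEM run scales by transcript length and library total, was used for levels and ratios within a uterus (0.01 added to each), and the deposited FPKM was not used.

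After rounding, expected counts went into edgeR 4.0.16 under R 4.3.3 (filterByExpr by group, TMM, glmQLFit without the legacy setting, glmQLFTest), with Benjamini-Hochberg adjustment over 16605 genes, using the procedure tested on simulated data. The SE of a fold change was taken as its size over √F. limma 3.58.1 and DESeq2 1.42.0 served as alternatives. Symbols and coordinates came from GENCODE M39, which holds 56017 of the 56748 identifiers. The members and lists were chosen with earlier results of these data known. Genes named besides the members were fixed by symbol whatever their values, apart from those said to be named later and 1 that is not reported here, and the nearest profiles were the 3 genes with the smallest difference. Total counts ranged from 13960748 to 25906443 per uterus, and the precision of a value follows the gene's own count. No separate litters or batches are labelled, and p-values measure the spread between these uteri. No pair of libraries had identical counts.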

Additional observations from a re-analysis of the deposited data

How the results depend on the processing

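Over all tested genes the number of calls was 26, and it was 1252 with edgeR's exact test, 1317 with its likelihood ratio test, 1546 with DESeq2, 105 without a filter, 7 with the legacy quasi-likelihood setting, and from 1 to 892 when single uteri were omitted, the most without control 2. The cause was not tested. Among the 8 genes there were 0 calls except with DESeq2, which made 1, *Gli1* (log2 fold change −1.94, adjusted p = 0.0465). With the replicate block, the shared uterus number as a term, 6 genes and no member were called, and the log2 fold change of *Ihh* was −0.76. Deviations of same-numbered uteri correlated across genes at 0.104, 0.0691 and −0.196, and those of differently numbered uteri at −0.311 to 0.22. With 3 uteri in a group, these values cannot show whether the numbers pair the uteri. The fold change of *Ptch1* ran from −0.55 to 0.155 with a uterus left out and was above 0 relative to stromal markers (0.399) and to *Pdgfra* (0.506). On these denominators *Smo* (0.466 and 0.573), *Nr2f2* (0.466 and 0.573) and *Hhip* (0.424 and 0.531) were above 0 too, and the summed stromal markers themselves were lower in *Gp130* ecKO. *Hhip* was also above 0 with limma voom (0.438) and with a pseudocount of 0.1 (0.00958). *Ihh*, *Gli1*, *Gli2* and *Gli3* were below 0 under every alternative run. The number of members whose groups did not overlap was 0 over all uteri and between 0 and 5 with a uterus left out, an alternative added after the data were seen: 5 without *Gp130* ecKO 2 (42.1% of tested genes), 4 without control 1 (38.9%) and 2 without control 2 (45.5%). Low counts limit *Hhip* and, less so, *Gli3*.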
